A study of Mus musculus with 6 samples.

Results

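Phenograph cluster 15 of colonic CD4 T cells held 164 of the 18874 cells that carried a hashed replicate, and 143 of them came from the tdTomato-GFP- gate. Its cells were taken as those with cluster number 15 and an assigned replicate in the authors' cell table, and the cytotoxic genes Nkg7, Gzma, Gzmb and Klrd1 served as its markers. All cells came from the colonic lamina propria of mice that carried Foxp3{delta}EGFPiCre/WT together with R26lsl-tdTomato/wt, so every group shares both alterations. Foxp3 encodes the transcription factor of regulatory T (Treg) cells. The altered Foxp3 allele carries EGFP, a green fluorescent protein, and iCre, a recombinase that switches on the red protein tdTomato from the R26 locus. Cells sorted as tdTomato+GFP+ showed both colours, and those sorted as tdTomato-GFP- showed neither. The altered allele is the sole source of Cre, and the labels do not spell out what its delta lacks. Each gate filled 1 lane of the 10x Chromium platform, shared by 3 biological replicates with hashtags, and an effect of the gate cannot be told apart from one of its lane. The protocol allows 3′ or 5′ chemistry and does not say which lane had which. Both gates had a receptor library, and a difference in chemistry, if there was one, could not be told apart from the gate. Strain and age of the mice are not given in the sources used here. Cluster 15 had 74, 43 and 26 cells in replicates 1, 2 and 3 of the tdTomato-GFP- gate, and 0, 6 and 15 in those of the tdTomato+GFP+ gate. Levels below are those of the tdTomato-GFP- gate unless the other gate is named. The 143 cells were set beside cluster 4 (1295 cells), cluster 6 (988 cells) and all 9839 clustered cells of the gate outside cluster 15, which include clusters 4 and 6.

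Cytotoxic lymphocytes kill by releasing granules that hold the pore-former perforin and granzyme proteases, and by presenting death ligands such as Fas ligand. Natural killer (NK) cells and CD8 T cells are the usual carriers of this program, and a small share of CD4 T cells, often in tissues and in long-standing immune responses, takes on parts of it. Such cells also release chemokines, among them CCL3, CCL4 and CCL5, which draw other leukocytes. In the gut, cytotoxic T cells are best known from the epithelium, and the lamina propria below it holds mainly helper and regulatory CD4 T cells.

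The label was set beside marker lists. Levels are UMIs (unique molecular identifiers, which count captured transcripts) summed over the cells of a replicate and scaled to the total UMIs of those cells (CPM, counts per 1000000), without the hashtag features. A gene is called past the fold where the means differed at least 2-fold after 20 CPM was added to each and all 3 replicates of cluster 15 lay beyond all 3 of the other group. Since the clusters were made from the gene counts, these levels describe the cluster and were not tested. Of 15473 genes, 48 (0.31%) were higher in cluster 15 than in all other clusters and 108 (0.698%) were lower. Against cluster 4 the numbers were 44 (0.284%) and 81 (0.523%), and against cluster 6 they were 60 (0.388%) and 110 (0.711%). The median log2 fold over all genes was -0.02, -0.01 and -0.01 in these 3 comparisons. The 8 cytotoxic markers (Nkg7, Gzma, Gzmb, Klrd1, Prf1, Ctsw, Ccl5 and Eomes) were all past the fold over all other clusters and over cluster 6, and 7 of 8 over cluster 4, with median log2 folds of 2.19, 2.09 and 1.87. For Klrd1 the call rested on 2 UMIs in replicate 3. None of the 10 markers of CD4 alpha beta T cells was past the fold in any of the comparisons, and their summed level was 5834, 5256 and 5095 CPM against 5589.8, 5404 and 5291 CPM in all other clusters. Cd4 itself stood at 366, 325 and 307 CPM beside 346, 338 and 338 CPM, so the groups overlapped, and 96 of 143 cells had a Cd4 UMI. Cd3e, a chain of the T cell receptor complex, had a UMI in 134 of 143 cells. Cd8b1, the CD8 beta chain, had 2 UMIs in all, both in replicate 2, and Cd8a was not analysed here. As a description, transcripts of both parts of the name, CD4 T cell and cytotoxic-like, were present. The cytotoxic list holds Nkg7, Gzma, Gzmb and Klrd1, which served as the cluster's markers, so it is no independent check of the name. Of the 143 cells, 24 had no receptor chain, and they are described below.

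The summed UMIs of cluster 15 were 267580, 147833 and 94604 in replicates 1 to 3, so a count of 0 allowed up to 11.2, 20.3 and 31.7 CPM (3 counts, counting error only). The median cell had 3371.5, 3116 and 3180 UMIs, fewer than in cluster 4 (4654, 4409.5 and 4808), cluster 6 (3861, 3869 and 4063.5) and all other clusters (3910, 3779.5 and 3852). The median mitochondrial share was 0.684%, 0.843% and 0.605% in cluster 15 and 0.798%, 0.821% and 0.815% in all other clusters. The 2 lanes shared 106 cell barcodes among assigned cells, and 1 cell of cluster 15 had such a barcode. Shares of cells with a UMI are also given after each cell was thinned to 2000 UMIs, which left out 12 of the 143 cells. Beside such shares stands cluster 9, as a rough guide to free RNA and background where its own cells do not carry the gene. Its genes include Ccr7 (2289.6, 2253 and 1139.5 CPM) and Lef1 (702, 743 and 718 CPM), which mark naive T cells, and its median cell had 3640, 3380 and 3536 UMIs.

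Nkg7, a granule membrane protein of NK and cytotoxic T cells (chr7:43437073-43438249, coordinates of GRCm38 from GENCODE vM21), was at 1644, 1853 and 1385 CPM in replicates 1 to 3 of cluster 15. It was at 414, 377 and 519 CPM in cluster 4, 419, 335 and 484 CPM in cluster 6 and 252, 220.0 and 280.1 CPM in all other clusters. Every replicate of cluster 15 lay above every value of the other groups, with log2 folds of 2.61, 1.85 and 1.93 over all other clusters, cluster 4 and cluster 6. Gzmb, which encodes the serine protease granzyme B (chr14:56258838-56262260), was at 744, 1326 and 2378 CPM beside 297, 187 and 345 CPM in cluster 4, 188, 160.0 and 285 CPM in cluster 6 and 363, 243 and 305 CPM in all other clusters. No replicates overlapped, and the log2 folds over all other clusters, cluster 4 and cluster 6 were 2.22, 2.34 and 2.70. Replicate 3 was the highest and replicate 1 the lowest of the cluster. Gzma, which encodes granzyme A (chr13:113093825-113100981), spread most, with 265, 1941 and 750.5 CPM. In cluster 4 it was at 51.9, 180.1 and 527 CPM, so replicate 1 of cluster 15 lay below replicate 3 of cluster 4 and the groups overlapped. Over all other clusters (40.8, 113 and 149 CPM) the log2 fold of Gzma was 3.06, and over cluster 6 (25.2, 26.8 and 46.1 CPM) it was 4.25, both without overlap. Klrd1, which encodes the NK receptor chain CD94 (chr6:129591782-129598775), was at 63.5, 142 and 21.1 CPM from 17, 21 and 2 UMIs. Cluster 4 had 10.2, 6.17 and 16.3 CPM, cluster 6 had 9.06, 0.788 and 4.94 CPM and all other clusters had 7.19, 5.05 and 10.4 CPM. The log2 folds of Klrd1 over all other clusters, cluster 4 and cluster 6 were 1.80, 1.63 and 1.94, with replicate 3 of cluster 15 close to the highest value of cluster 4. Replicate 2 carried much of this: without it the log2 fold over cluster 4 was 0.91 for Klrd1 and 0.77 for Gzma, both under 2-fold, and without replicate 3 that of Gzma was 3.05. As means of the 3 replicates, cluster 15 had 1628 ± 235 CPM (SD, n = 3) for Nkg7, 1483 ± 829 CPM (SD, n = 3) for Gzmb, 986 ± 862 CPM (SD, n = 3) for Gzma and 75.6 ± 61.3 CPM (SD, n = 3) for Klrd1.

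**Figure D1:**
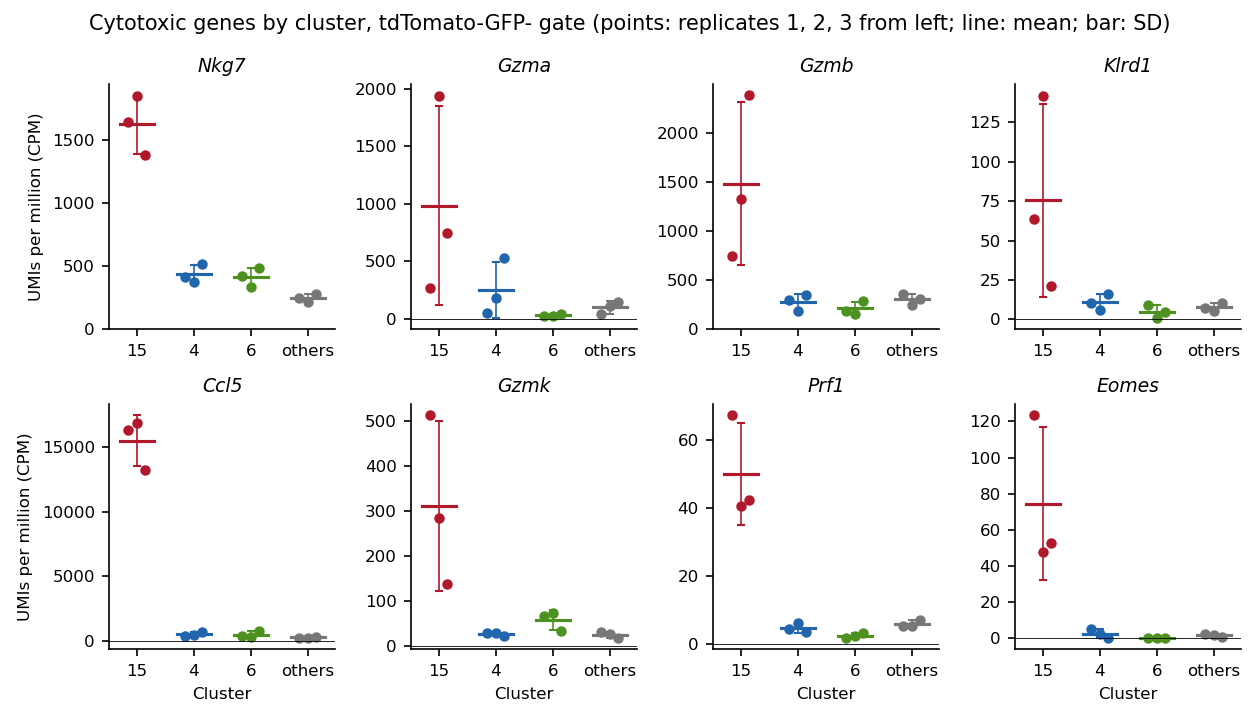
Levels of 8 cytotoxic genes in CPM (counts per 1000000 UMIs, linear axes from 0) in cluster 15, cluster 4, cluster 6 and all other clusters of the tdTomato-GFP- gate. Points are replicates 1, 2 and 3 from left to right, the line is their mean and the bar the SD (n = 3). Ccl5 of cluster 15 sits between 13213 and 16829.8 CPM, far above the other groups, while the Gzma points of clusters 15 and 4 overlap.

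Single cells carried the markers unevenly. Nkg7 had a UMI in 135 of the 143 cells (93.2, 97.7 and 92.3% by replicate, 85.5, 89.2 and 84.0% after thinning), beside 2.24, 2.59 and 5.08% in cluster 9. Gzmb had a UMI in 70 cells (47.3, 44.2 and 61.5%, 40.6, 35.1 and 52.0% after thinning, 2.56, 3.11 and 0% in cluster 9). Gzma had a UMI in only 22 cells (13.5, 18.6 and 15.4%, 1.60, 1.04 and 1.02% in cluster 9), and 5 cells held 83.4% of its 429 UMIs, with 150 in the highest cell. Klrd1 had a UMI in 20 cells (13.5, 18.6 and 7.69%, 1.28, 0 and 3.55% in cluster 9), at most 8 in a cell. A UMI of Nkg7 was thus seen in nearly every cell, of Gzmb in fewer, and of Gzma or Klrd1 in fewer again. The order was the same after thinning, where Gzma was seen in 8.70, 10.8 and 16% of cells and Klrd1 in 10.1, 16.2 and 4%, beside 1.01, 0 and 0% and 0.338, 0 and 2.72% in cluster 9. In replicate 3 the Klrd1 shares of both clusters were close, so its level there, from 2 UMIs, is uncertain. The calls past the fold for Klrd1 use that level and share its uncertainty.

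Of the granule list, 19 of 23 genes were in the table, and 7 were past the fold above all other clusters, with none below. Over cluster 4 there were 5 above and 0 below, and over cluster 6 there were 8 above and 1 below. The median log2 folds over the list were 0.37, 0.48 and 0.30. Gzmk, which encodes granzyme K, was at 512.0, 284 and 137 CPM beside 31.4, 25.7 and 17.7 CPM in all other clusters, a log2 fold of 2.88. Its highest level was in replicate 1 and its lowest in replicate 3, the reverse of Gzmb. Prf1, which encodes perforin, was at 67.3, 40.6 and 42.3 CPM against 4.49, 6.17 and 3.5 CPM in cluster 4, 1.97, 2.36 and 3.29 CPM in cluster 6 and 5.29, 5.51 and 7.21 CPM in all other clusters. It rested on 28 UMIs in 20 cells, and the share of cells with a UMI (14.9, 14.0 and 11.5%) was close to that of cluster 9 (12.1, 8.29 and 10.7%), also after thinning (10.1, 8.11 and 4% and 7.09, 4.42 and 5.98%). In all other clusters the share was 2.03, 2.08 and 2.46%, so cluster 9 is no measure of background for Prf1. Ctsw, which encodes the lymphocyte protease cathepsin W, was at 650.3, 981 and 645 CPM beside 144, 157 and 161 CPM, a log2 fold of 2.16. Serpinb9, an inhibitor that shields cells from granzyme B, was at 89.7, 183 and 137 CPM beside 34.9, 35.5 and 31.7 CPM in all other clusters and 62.1, 58.9 and 57.1 CPM in cluster 4, and its log2 fold over cluster 4 (0.98) was just under 2-fold. Serpinb6b, another serpin, was past the fold over cluster 6 alone of the comparisons, at 56.1, 101 and 74.0 CPM against 21.7, 26.8 and 14.8 CPM, and in the comparison with all other clusters its log2 fold was 0.97. Stx11, a syntaxin of granule release, was the gene below cluster 6, at 86.0, 40.6 and 31.7 CPM against 146, 141 and 114 CPM. Srgn, the granule proteoglycan serglycin, was high everywhere and a little lower in cluster 15 (1824, 2002 and 1638 CPM) than in all other clusters (2432, 2402 and 2224 CPM). Members of the list without a cluster 15 difference past the fold included Lamp1 (97.2, 115 and 106 against 108, 107 and 109 CPM), Stxbp2 (67.3, 74.4 and 63.4 against 62.3, 58.1 and 56.5 CPM) and Cst7 (138, 203 and 95.1 against 93.6, 90.1 and 84.0 CPM), which encode a lysosomal membrane protein, a partner of syntaxins and cystatin F.

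Chemokine transcripts set the cluster apart most. Ccl5 (chr11:83525778-83530518) was at 16294, 16829.8 and 13213 CPM, beside 407, 480.4 and 724 CPM in cluster 4, 396, 338 and 796 CPM in cluster 6 and 285, 278 and 356 CPM in all other clusters. Its log2 folds of 5.57, 4.79 and 4.87 over all other clusters, cluster 4 and cluster 6 were the largest of all genes in each comparison, and its mean was 15446 ± 1952 CPM (SD, n = 3). Ccl4 (chr11:83662584-83664683) was at 714, 1671 and 772 CPM beside 35.2, 12.3 and 51.3 CPM in cluster 4, 72.5, 27.6 and 74.1 CPM in cluster 6 and 35.4, 21.6 and 82.8 CPM in all other clusters, log2 folds of 4.34, 3.78 and 4.01. Replicate 2 held the highest level, and 54 of the 143 cells had a UMI. Ccl3 was at 82.2, 33.8 and 137 CPM against 6.88, 5.28 and 5.37 CPM in all other clusters. Xcl1, which encodes lymphotactin, the ligand of XCR1 on dendritic cells, was at 82.2, 115 and 116 CPM against 29.6, 24.8 and 22.2 CPM. These 4 chemokines were past the fold above each of the 3 reference groups, of 9 in the list, and the list's median log2 folds were -0.03, 0.31 and 0.63 over all other clusters, cluster 4 and cluster 6. Ccl20, the ligand of CCR6, was the chemokine past the fold below all of them, with 0 UMIs in cluster 15 against 83.9, 163 and 182 CPM in all other clusters.

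Ccl5 was present in every cell of the cluster. The lowest cell had 13 UMIs, the median cell 43 and the highest 356. In all other clusters the median cell had 0 and the highest 79, and 327 of 9839 cells (3.32%) reached 13 or more. Those 327 cells lay mostly in clusters 0 (115 cells), 4 (82), 6 (51) and 8 (25). They shared part of the cluster 15 pattern. Their Nkg7 level was 1082, 1074 and 1110.5 CPM, between cluster 15 and the remaining cells (mean 215 CPM). Eomes was at 2.41, 11.6 and 0 CPM in them, Gzmk at 84.5, 88.3 and 33.0 CPM and Il17a at 654, 351 and 132 CPM. A count of Ccl5 alone thus held all cells of cluster 15 but did not mark it off from these others.

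**Figure D2:**
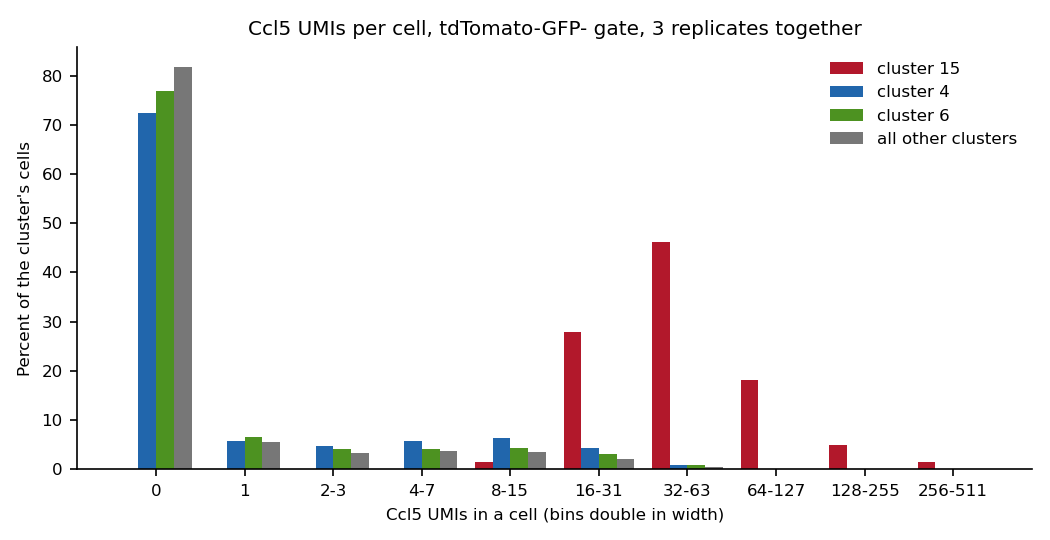
Share of cells (percent of the group's cells, vertical axis) by the number of Ccl5 UMIs in the cell (horizontal axis, bins that double in width) for cluster 15, cluster 4, cluster 6 and all other clusters of the tdTomato-GFP- gate, 3 replicates together. Bars of cluster 15 start in the bin of 8 to 15 UMIs, its lowest cell having 13, while most cells of the other groups lie at 0.

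Receptors and adaptors of NK cells formed the next group. Of 28 measured genes of that list (33 listed), 7 were past the fold above all other clusters and 1 below, 5 above and 1 below cluster 4, and 8 above and 0 below cluster 6. Its median log2 folds were 0.42, 0.37 and 0.43. Cd7, an immunoglobulin-family receptor of T and NK cells, was the highest of them at 617, 839 and 455 CPM beside 97.7, 105 and 188 CPM in cluster 4, 25.6, 71.7 and 60.9 CPM in cluster 6 and 51.1, 54.5 and 71.7 CPM in all other clusters. It had a UMI in 73 of the 143 cells. Klrc1, which encodes NKG2A, the partner of CD94, was at 33.6, 142 and 31.7 CPM against 8.21, 4.98 and 6.55 CPM in all other clusters. Klrk1, which encodes the activating receptor NKG2D, was at 89.7, 67.6 and 74.0 CPM against 25.8, 21.3 and 25.7 CPM. Slamf7, a receptor of the SLAM family, was at 93.4, 142 and 116 CPM against 15.6, 17.0 and 21.6 CPM. The signalling adaptor Fcer1g was at 116, 311 and 148 CPM against 33.3, 39.4 and 48.5 CPM, and the adaptor Tyrobp, which encodes DAP12, was at 52.3, 176 and 179.7 CPM against 20.9, 24.7 and 35.9 CPM. Both were highest in replicates 2 or 3 and lowest in replicate 1. Cd160 was past the fold over cluster 6 only (86.0, 162 and 21.1 against 7.49, 16.6 and 11.5 CPM), since replicate 3 overlapped the other groups. Hcst, which encodes the NKG2D adaptor DAP10, was at 987, 961 and 1025 CPM against 527, 512.1 and 528 CPM, above without overlap but under 2-fold. Klrg1 was the member below all other clusters and cluster 4, at 44.8, 47.4 and 0 CPM against 64.9, 155 and 125 and 56.1, 158 and 112 CPM.

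Several of these transcripts came in large part from cells with no receptor sequence. Of the 143 cells, 24 (10, 8 and 6 by replicate) had no alpha or beta chain in the receptor table, and they held 16.1% of the cluster's UMIs. They held 47.6% of the Gzma UMIs, 66.7% of Klrc1, 56.0% of Fcer1g, 47.4% of Tyrobp, 31.3% of Ccl4 and 30% of Klrd1, but 8.85% of Gzmk, 4.44% of Eomes and 0 of 28 Prf1 UMIs. These shares pool the replicates, which differed widely. In the cells with no chain, Gzma was at 24.5, 6663 and 1812 CPM, Klrc1 at 123, 644 and 0 CPM and Tyrobp at 0, 454 and 1007 CPM. Fcer1g and Ccl4 were above the cells with both chains in each replicate. Their Cd3e UMIs were seen in 19 of 24 cells and their Cd4 UMIs in 14 of 24, beside 115 and 82 of 119 cells with a chain. Their median depth was 3029 UMIs against 3361. An alpha or beta chain was found in 86.5%, 81.4% and 76.9% of cluster 15 cells by replicate, beside 87.6%, 86.8% and 86.5% in all other clusters. The list of NK and group 1 innate lymphoid cell markers had 8 measured genes, and 3 (Tyrobp, Fcer1g and Eomes) were past the fold over all other clusters. Its summed level was 306, 568 and 455 CPM in cluster 15 and 69.7, 80.5 and 98.3 CPM in all other clusters. Ncr1, which encodes NKp46, a defining marker of NK cells, had 5 UMIs in the cluster, all in 2 cells with no chain. Of the gamma delta T cell markers, Trdc had 2 UMIs, in 1 cell with no chain, Trdv4 had 2 UMIs, and Cd163l1, Blk and Sox13 were at 0, while Trgc1, Trgc2 and Trgc4 were not analysed here. Outside that list, the gamma chain segment Trgv2 was high, at 119.6, 352 and 95.1 CPM against 27.3, 45.1 and 54.1 CPM in all other clusters, and 76 of its 93 UMIs came from cells with an alpha or beta chain. What these cells contribute was not tested, and the levels were therefore also taken over the 96 cells with both chains. There, 7 of the 8 cytotoxic markers were past the fold over all other clusters, over cluster 4 and over cluster 6. Gzma was the exception, at 60.1, 20.6 and 581 CPM, and its log2 fold became 1.03 over all other clusters, 2.25 over cluster 6 and -0.08 over cluster 4. Of 225 Gzma UMIs in cells with any chain, 57 lay in these 96 cells. Fcer1g stood at 76.5, 134 and 26.4 CPM in them, Klrd1 at 65.6, 124 and 13.2 CPM, Eomes at 169, 61.8 and 66.0 CPM and Gzmb at 650.4, 371 and 2190.2 CPM. In replicate 3 only 1 of these cells had a Klrd1 UMI, so the call of Klrd1 past the fold is uncertain.

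Fasl and Tnfsf10 were higher in cluster 15 than in all other clusters, and 5 helper cytokine genes were lower. Fasl, which encodes Fas ligand, was at 508, 555 and 370.0 CPM beside 131, 129.6 and 133 CPM in cluster 4, 197, 193 and 194 CPM in cluster 6 and 105, 115 and 121 CPM in all other clusters, log2 folds of 1.72, 1.21 and 1.90. Tnfsf10, which encodes the death ligand TRAIL, was at 67.3, 74.4 and 63.4 CPM against 20.3, 20.9 and 25.0 CPM. Both genes lay above every replicate of the other groups, though Tnfsf10 stayed under 2-fold over cluster 6. Ifng, which encodes interferon gamma, was at 542, 595 and 370.0 CPM, above all other clusters (326, 322 and 319 CPM) but below cluster 6 (799.6, 711 and 794 CPM), and not past 2-fold in either comparison. Tnf was at 44.8, 142 and 84.6 CPM against 74.0, 62.7 and 71.0 CPM, and Il2 was at 29.9, 67.6 and 31.7 CPM against 32.8, 52.8 and 44.6 CPM, both with overlap. Il17a, the signature cytokine of Th17 cells, had 1 UMI in the 143 cells (3.74, 0 and 0 CPM), beside 426, 276 and 226 CPM in cluster 4, 1019, 902 and 906 CPM in cluster 6 and 1859, 1497 and 1952 CPM in all other clusters. It had the most negative log2 fold in each comparison (-6.40 over all other clusters). Il17f and Il22 also had 1 UMI each, against means of 247 and 196 CPM in all other clusters. Areg, which encodes the epithelial growth factor amphiregulin, was at 116, 135 and 42.3 CPM against 722, 1089 and 1064 CPM. Csf2, which encodes GM-CSF, had 3 UMIs (7.47, 6.76 and 0 CPM), where cluster 4 had 122, 46.6 and 74.6 CPM. Of the 15 death ligand and cytokine genes, 2 were past the fold above all other clusters (Fasl and Tnfsf10) and 5 below (Csf2, Il17a, Il22, Il4 and Il13), 2 above and 4 below cluster 4, and 1 above and 3 below cluster 6. The list's median log2 folds were -0.43, -0.14 and -0.74.

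The low helper genes were of several kinds. All 6 Th17 markers were past the fold below each of the 3 groups, and their summed level was 14.9, 6.76 and 10.6 CPM against 2339, 1981 and 2562 CPM in all other clusters. Of 5 Treg markers, 3 were below all other clusters, 2 below cluster 4 and 2 below cluster 6. Foxp3 was at 11.2, 6.76 and 84.6 CPM in cluster 15 (5 cells with a UMI) against 178, 201 and 174 CPM in all other clusters, and replicate 3 of cluster 15 was the highest of its 3. Il2ra, the high-affinity IL-2 receptor chain, was at 26.2, 27.1 and 0 CPM against 87.8, 96.7 and 91.5 CPM. Of 6 Th2 markers, 2 were past the fold below all other clusters and none above, and of 5 Th1 markers Tbx21 and Ccl5 were above. The other genes at the low end included Tmem176a (33.6, 33.8 and 0 against 279.5, 217 and 226 CPM) and its neighbour Tmem176b (33.6, 54.1 and 0 against 327, 259.9 and 287 CPM), which encode membrane proteins. Ltb4r1, which encodes a leukotriene B4 receptor, had 0 UMIs against 106, 88.8 and 82.1 CPM. Penk (26.2, 0 and 0 against 142, 213 and 172 CPM), which encodes the precursor of the enkephalins, Cd83 (7.47, 13.5 and 0 against 136, 182 and 165 CPM), an activation marker, Ccr7 (26.2, 20.3 and 10.6 against 266, 248 and 208 CPM), the lymph node homing receptor, and Sdc4 (14.9, 0 and 10.6 against 134, 113 and 119 CPM), which encodes syndecan 4, were also low.

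**Figure D3:**
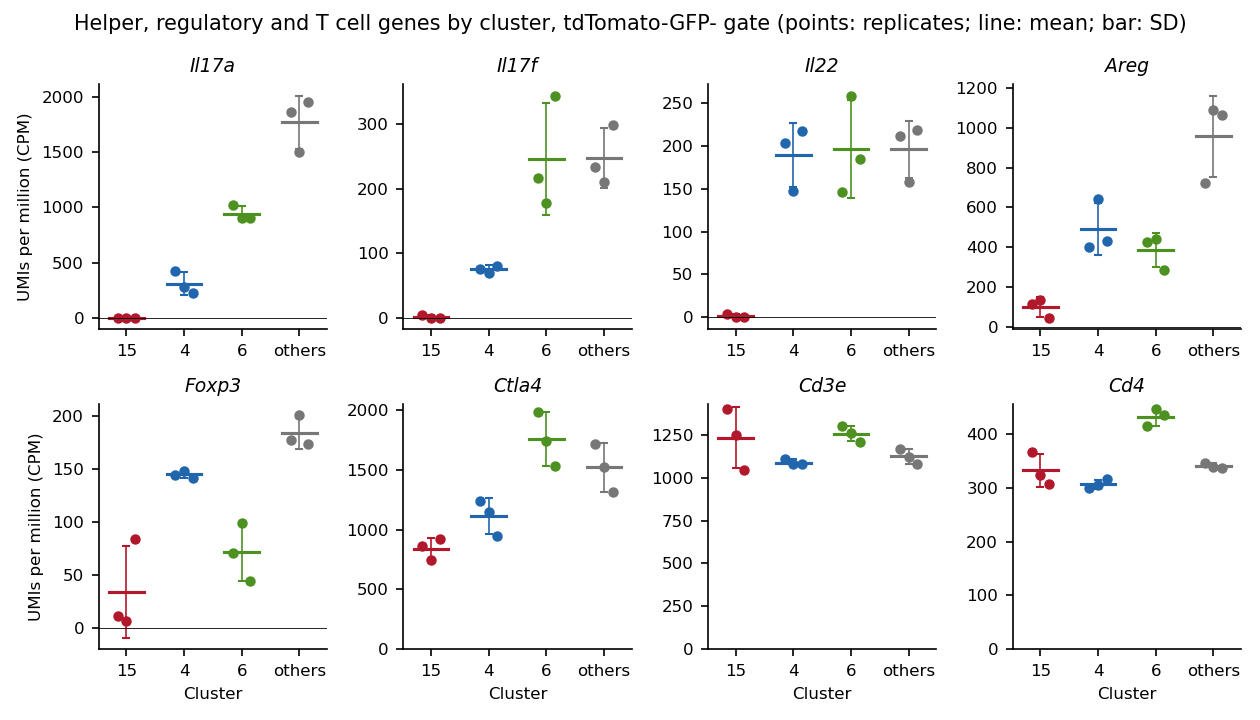
Levels of helper cytokine, Treg and T cell genes in CPM (counts per 1000000 UMIs, linear axes from 0) in cluster 15, cluster 4, cluster 6 and all other clusters of the tdTomato-GFP- gate. Points are replicates 1, 2 and 3 from left to right, the line is their mean and the bar the SD (n = 3). Il17a, Il17f and Il22 of cluster 15 lie at or near 0, while Cd4 (mean 332 CPM against 341 CPM in all other clusters) overlaps.

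Among 28 transcription factors, 3 were past the fold above all other clusters (Tbx21, Eomes and Zfp683) and 5 below, among them Foxp3, Ikzf2, Nfil3 and Satb1, with 3 above and 3 below cluster 4 and 2 above and 3 below cluster 6. The list's median log2 folds were -0.22, 0.14 and -0.01. Eomes, the T-box factor of NK and memory CD8 T cells (chr9:118478212-118486132), was at 123, 47.4 and 52.9 CPM. Cluster 6 had 0 UMIs of it in all replicates, cluster 4 had 4.74, 2.24 and 0 CPM and all other clusters had 2.38, 1.53 and 0.524 CPM, and 18 cells of cluster 15 had a UMI. Tbx21, which encodes the T-box factor T-bet of Th1 and cytotoxic cells, was at 202, 176 and 179.7 CPM beside 75.5, 66.8 and 83.9 CPM in cluster 4, 93.4, 99.3 and 87.3 CPM in cluster 6 and 61.5, 59.0 and 56.9 CPM in all other clusters. All replicates of cluster 15 lay above, by a log2 fold of 0.86 over cluster 6, just under 2-fold. Zfp683, which encodes Hobit, a factor of tissue-resident lymphocytes, was at 44.8, 54.1 and 84.6 CPM against 7.99, 9.42 and 7.08 CPM. Runx3, a factor of the CD8 lineage, was at 280.3, 142 and 243 CPM against 134, 140.1 and 142 CPM, under 2-fold, with replicate 2 level with the other clusters. Zbtb7b, which encodes ThPOK, the factor that fixes the CD4 lineage, was at 29.9, 6.76 and 106 CPM against 36.4, 33.6 and 41.9 CPM, and its 3 replicates spread over both sides of the others.

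Genes of tissue residence were mixed. Of 15 measured genes, 4 were past the fold above all other clusters (Itga1, Zfp683, Jaml and Xcl1), 5 above cluster 4 and 5 above cluster 6, with none below, and the list's median log2 folds were 0.39, 0.50 and 0.28. Itga1, the integrin chain CD49a that binds collagen, was at 82.2, 101 and 127 CPM against 15.0, 12.9 and 17.2 CPM in all other clusters, and 37 cells had a UMI. Jaml, an adhesion molecule that binds an epithelial partner, was at 105, 189 and 116 CPM against 24.3, 21.1 and 24.9 CPM. Itgae, which encodes CD103, the integrin chain that binds E-cadherin on epithelium, was at 74.7, 94.7 and 42.3 CPM against 40.6, 68.5 and 70.5 CPM, with overlap. Cd69 (561, 561 and 919.6 against 582, 597 and 661 CPM) and Cxcr6 (505, 474 and 539 against 445, 387 and 455 CPM) were under 2-fold. Of 26 homing receptor genes, 2 were above all other clusters (Gpr18 and Itga1) and 2 below (Ccr6 and Ccr7), with 2 above and 3 below cluster 4 and 3 above and 2 below cluster 6. The list's median log2 folds were 0.09, 0.19 and 0.02. Gpr18, a receptor linked to lymphocyte persistence in the gut, was at 172, 277 and 116 CPM against 58.6, 53.7 and 62.9 CPM, although cluster 9 had a UMI of it in a larger share of cells (52.4, 48.2 and 41.6% against 33.8, 44.2 and 26.9%). In all other clusters that share was 16.1, 13.6 and 16.3%, so cluster 9 is no measure of background for Gpr18. Cxcr3 was at 299, 257 and 359 CPM against 168, 145 and 143 CPM, without overlap but under 2-fold.

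Other lists differed less. Of 18 measured genes of T cell receptor signalling, 0 were past the fold against all other clusters or cluster 4, and 1, the costimulatory receptor Cd27, was above cluster 6. Its median log2 folds were -0.01, 0.06 and -0.04. Of 10 inhibitory receptor genes, 0 were past the fold against all other clusters or cluster 4 and Ctla4 was below cluster 6 (859.6, 744 and 919.6 against 1987, 1745 and 1535 CPM). Lag3 was at 176, 108 and 31.7 CPM against 289, 207 and 182 CPM in all other clusters, and Pdcd1, which encodes PD-1, was at 135, 108 and 74.0 CPM against 108, 107 and 86.9 CPM. Of 19 cytokine receptor genes, 0 were above and 4 below all other clusters (Il2ra, Il23r, Il1r1 and Ifngr2), 3 below cluster 4 and 3 below cluster 6. Il2rb, the chain shared by the IL-2 and IL-15 receptors, was at 437, 480.3 and 381 CPM against 380.3, 357 and 321 CPM. Of 17 interferon response genes, 0 were past the fold against all other clusters or cluster 4, and 2 (Ifit1 and Rtp4) were above cluster 6. Of 19 cell cycle genes, 0 were above, 6 were below all other clusters, 5 below cluster 4 and 0 below cluster 6. Mki67, a marker of dividing cells, was at 37.4, 20.3 and 10.6 CPM against 77.2, 66.4 and 48.9 CPM. Of 14 genes of dissociation stress, 0 were above, and 2 (Egr1 and Atf3) were below all other clusters and below cluster 4, with 4 below cluster 6. The median log2 folds over all other clusters were -0.63 for the inhibitory receptors, -0.01 for the cytokine receptors, 0.25 for the interferon genes, -0.74 for the cell cycle and -0.28 for the stress genes. Markers of B and plasma, myeloid, epithelial and stromal cells and of innate-like T cells were not past the fold in any comparison. Their summed levels in cluster 15 were 52.3, 40.6 and 0 CPM for B and plasma cells and 273, 250.3 and 137 CPM for myeloid cells, beside 128.3, 42.4 and 35.4 and 248, 248 and 261 CPM in all other clusters.

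The receptor library was made apart from the gene counts that were clustered, so receptor measures could be tested over the 3 replicates. Receptor segments such as Trbv1 were also among the gene counts, so the separation was not complete. Both an alpha and a beta chain were found in 68.9%, 60.5% and 73.1% of cluster 15 cells (51 of 74, 26 of 43 and 19 of 26) and in 72.3%, 71.8% and 69.3% of the cells of all other clusters. The mean difference was -3.63 percentage points (SD 7.53), lower in 2 of 3 replicates (exact two-sided sign-flip permutation test over replicates, p = 0.75, where 3 pairs allow no p below 0.25). As an alternative, at least a beta chain was found in 83.8%, 76.7% and 76.9% of cluster 15 cells and 84.1%, 83.1% and 81.1% of the others. Cluster 15 was lower in each replicate, with a mean difference of -3.61 percentage points (exact sign-flip permutation test, p = 0.25). A clonotype is taken as cells with the same junction nucleotides of both chains, and it is called expanded where the same gate and replicate held 2 or more of its cells in any cluster. Expanded clonotypes made up 66.7%, 50% and 63.2% of cluster 15 cells with both chains (34 of 51, 13 of 26 and 12 of 19), a mean of 59.9 ± 8.79% (SD, n = 3). Cluster 15 ranked 5 of 13 clusters that had enough such cells to be ranked. Cluster 4 had 68.9%, 56.2% and 50.7%, and the difference of 1.34 percentage points (SD 9.80) was within the spread, positive in 1 of 3 replicates (exact sign-flip permutation test, p = 1). Cluster 6 had 77.9%, 68.7% and 70.7%. Cluster 15 differed by -11.3, -18.7 and -7.55 percentage points in replicates 1 to 3, at the smallest p that 3 pairs allow (exact sign-flip permutation test, p = 0.25). All other clusters had 60.3%, 55.0% and 47.3%, a difference of 5.72 percentage points (SD 10.4) that was positive in 2 of 3 replicates (exact sign-flip permutation test, p = 0.5). With 5 comparisons of this kind and a floor of 0.25, no adjusted p could be lower.

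The largest clones of the cluster are shown by their junctions, read 5′ to 3′ from the authors' receptor table, since they show how far single clones reached beyond it. Capitals mark bases that match neither the V nor the J segment of the call. No D segment was matched, so in a beta junction the capitals can hold D bases as well as bases added at the joints. Clone N1 (TRAV4-4-DV10 at chr14:53683647-53684177, TRAJ12 at chr14:54206553-54206610, TRBV15 at chr6:41141188-41141658 and TRBJ1-1 at chr6:41533864-41533911, plus strand, GRCm38, GENCODE vM21) had 6 of its 30 cells in cluster 15. Clone N2 (TRAV7-4, TRAJ12, TRBV20 and TRBJ2-5) had all 5 of its cells there. Clones N3 (TRAV6-7-DV9, TRAJ50, TRBV26 and TRBJ1-3) and N4 (TRAV7D-2, TRAJ15, TRBV17 and TRBJ2-2) had 3 of 15 and 3 of 10. Clone P1 of the tdTomato+GFP+ gate (TRAV7D-2, TRAJ27, TRBJ1-1 and a beta V call split between TRBV12-2 and TRBV13-2) had 9 of 23.
N1 alpha: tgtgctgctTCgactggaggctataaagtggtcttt
N1 beta: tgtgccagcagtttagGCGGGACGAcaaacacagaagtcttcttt
N2 alpha: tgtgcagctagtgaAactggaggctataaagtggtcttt
N2 beta: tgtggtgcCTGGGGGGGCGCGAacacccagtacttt
N3 alpha: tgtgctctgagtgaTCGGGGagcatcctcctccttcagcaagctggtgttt
N3 beta: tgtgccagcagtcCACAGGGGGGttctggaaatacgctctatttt
N4 alpha: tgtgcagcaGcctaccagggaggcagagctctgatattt
N4 beta: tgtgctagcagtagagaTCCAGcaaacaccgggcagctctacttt
P1 alpha: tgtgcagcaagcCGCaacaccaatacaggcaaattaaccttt
P1 beta: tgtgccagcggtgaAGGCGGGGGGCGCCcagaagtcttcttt
The alpha junctions of N1 and N2 used the same J segment with different V segments, and their beta junctions shared neither. The unmatched part ran from 1 base (alpha of N2 and N4) to 14 bases (beta of N2 and P1) in these 10 junctions.

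The 96 cells with both chains fell into 77 clonotypes (39, 22 and 16 by replicate), and 67 of these had a single cell in cluster 15. Of the 77, 37 had cells in other clusters too, and 50 cluster 15 cells belonged to them. Another 37 had a single cell in the gate and replicate. The remaining 3 clonotypes, with 9 cells, had 2 or more cells and lay in cluster 15 alone, N2 among them. N1 was spread over clusters 4 (8 cells), 0 (4), 6 (4), 8 (3), 7 (2), 5 (1) and 11 (1), beside 6 cells in cluster 15 and 1 without a cluster. N3 had 5 cells in cluster 4, 5 in cluster 0 and 2 in cluster 8, and N4 had 5 in cluster 4. Of the 77 clonotypes, 2 were found in more than 1 replicate of the gate and 4 in the tdTomato+GFP+ gate, none of them in cluster 15 there. None of the 96 cells with both chains had the invariant alpha chains TRAV11-TRAJ18 of NKT cells or TRAV1-TRAJ33 of MAIT cells. Cells without both chains were not counted here.

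**Figure D4:**
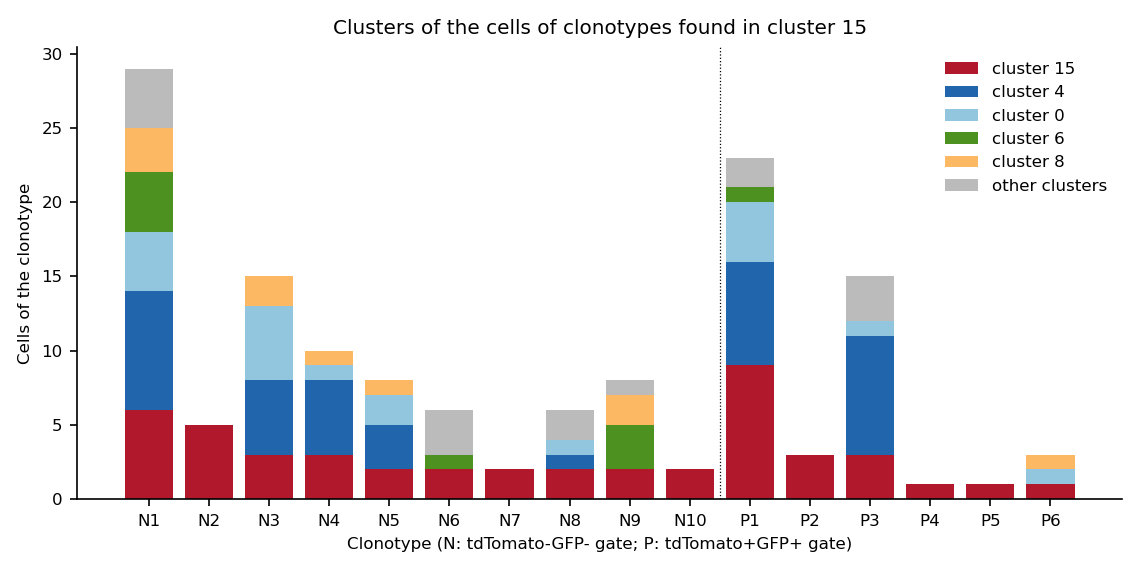
Cells of each clonotype (vertical axis) that had 2 or more cells in cluster 15 of the tdTomato-GFP- gate (N1 to N10) or any in the tdTomato+GFP+ gate (P1 to P6), coloured by cluster and counted within 1 gate and replicate, cells with a cluster number only. N2, N7, N10 and P2, P4 and P5 have cells in cluster 15 alone, while N1 reaches clusters 4, 0, 6 and 8 among others.

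Sharing of clonotypes was compared between partner clusters as the number of cell pairs with the same clonotype per 10000 pairs of a cluster 15 cell and a partner cell of the same replicate, a rate that does not grow with the size of the partner. With cluster 4 it was 23.7, 27.9 and 131.6 in replicates 1 to 3, and with cluster 6 it was 21.1, 16.2 and 15.9. The rate with cluster 4 was higher in 3 of 3 replicates, by a mean of 43.3 (SD 62.8), the smallest p that 3 pairs allow (exact sign-flip permutation test, p = 0.25). Replicate 3 set the size, as the mean difference was 7.13 without it. Put as cells, 33.3%, 26.9% and 47.4% of cluster 15 cells had a member of their clonotype in cluster 4, and 31.4%, 15.4% and 5.26% had one in cluster 6. In any other cluster 52.9%, 50% and 52.6% had one. Cluster 8 had 41.1, 25.3 and 30.1 and cluster 11 had 28, 15.7 and 23.9, so both were above cluster 4 in replicate 1, and cluster 4 stood first by mean through replicate 3. The small cluster 14 had 0, 85.5 and 47.8 from 25, 9 and 11 cells. With clusters 1, 2, 12 and 13 no clonotype was shared. Clusters 1 and 2 had 112, 61 and 57 and 172, 86 and 71 cells with both chains, and their expanded shares were among the highest of the gate, at means of 90.6% and 81.8%.

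**Figure D5:**
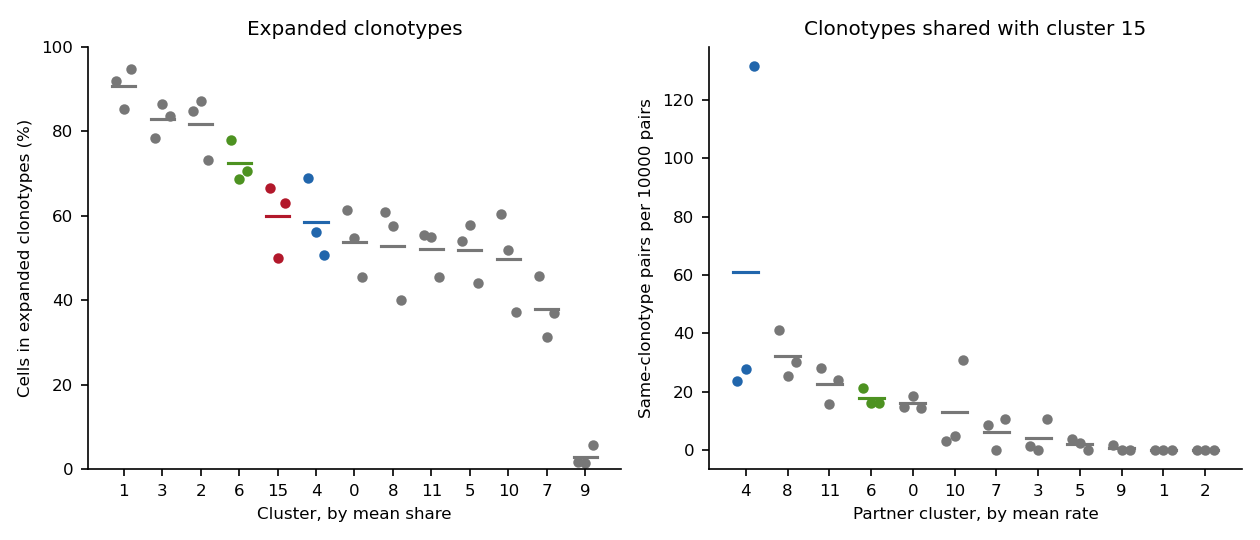
Left, percent of cells with both chains that belong to an expanded clonotype, by cluster of the tdTomato-GFP- gate, ordered by mean. Right, cell pairs with the same clonotype per 10000 pairs of a cluster 15 cell and a cell of the partner cluster. Points are 3 replicates and lines their means, in red for cluster 15, blue for cluster 4 and green for cluster 6, and clusters 12, 13 and 14, with few such cells, are left out. Cluster 15 lies at 50 to 66.7% on the left, and replicate 3 of cluster 4 stands apart at 131.6 on the right.

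The 37 clonotypes that also had cells elsewhere allowed cells with the same receptor to be set side by side, 50 cells in cluster 15 and 184 outside it (60 in cluster 4, 45 in cluster 0, 32 in cluster 6 and 15 in cluster 8). These levels are a description too, since the genes made the clusters. Ccl5 was at 14002, 9865 and 13499.6 CPM in the cluster 15 cells and 1843, 2439 and 2155 CPM in their clonal relatives, where the mean of all other clusters was 306 CPM. Nkg7 was at 1737, 2238 and 1439 CPM and 1137, 1179 and 1014 CPM, and Cd7 was at 448, 1188 and 408 CPM and 414, 299 and 255 CPM. For these genes the relatives held levels between those of cluster 15 and those of all other clusters (means of 251 and 59.1 CPM). Other genes did not follow this order. Gzmb was at 393, 414 and 1511 CPM in cluster 15 and 36.2, 16.1 and 137 CPM in the relatives, below the mean of all other clusters (303.5 CPM). Prf1 (5.17, 0 and 0 CPM by replicate) and Eomes (2.59, 0 and 0 CPM) had too few UMIs in the relatives to be ranked against all other clusters (means of 6.01 and 1.48 CPM). Relatives were also below the mean of all other clusters for Gzma (means of 22.8 against 101 CPM), Fcer1g (17.4 against 40.4 CPM) and Tyrobp (9.88 against 27.2 CPM). The 50 cells of cluster 15 themselves did not exceed that mean for Gzma (93.1 CPM), Fcer1g (26.9 CPM) and Tyrobp (7.28 CPM). Ifng overlapped, at 666, 718 and 336 CPM and 527, 1187 and 471 CPM, and so did Tbx21, at 197, 359 and 119.9 CPM and 233, 194 and 123 CPM. Il17a was low on both sides, at 10.9, 0 and 0 CPM and 127, 64.6 and 61.3 CPM beside a mean of 1769.7 CPM in all other clusters. Foxp3 had 0 UMIs in the 50 cells and 23.3, 0 and 4.71 CPM in the relatives.

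Within cluster 15, cells of expanded clonotypes were compared with cells of single-cell clonotypes by edgeR on sums per replicate, with the replicate as a block. The sums held 34, 13 and 12 expanded and 17, 13 and 7 single cells. Of 1034 genes tested, 1 (0.0967%) passed an adjusted p of 0.05, and 34 were higher and 29 lower at an unadjusted p under 0.05. Ccl4 was at 834, 1464 and 743 CPM in the expanded cells and 218, 230.0 and 0 CPM in the single cells, higher in 3 of 3 replicates (log2 fold change 2.54, SE 0.37, adjusted p = 0.00875 by edgeR's quasi-likelihood test). A few cells carried it. The highest cell held 40 of 99, 38 of 53 and 36 of 37 Ccl4 UMIs of the expanded sums, and cells with a UMI were 15 of 34, 6 of 13 and 2 of 12 against 7 of 17, 5 of 13 and 0 of 7. The call was lost in edgeR without the block (adjusted p = 0.109), with 3 or more cells as the threshold (0.819), with clonotypes taken from the beta chain alone (0.0611), without replicate 2 (0.963) and without replicate 3 (0.559), and it was kept in DESeq2 (0.00839). Ifng was at 565, 718 and 301.2 CPM against 311, 230.0 and 115 CPM (log2 fold change 1.19, SE 0.30, adjusted p = 0.205 by edgeR). Nkg7, Gzmb, Gzmk, Ccl5, Cd7, Eomes and Tbx21 had adjusted p values from 0.810 to 0.973 in the same edgeR fit, with log2 fold changes from -0.96 to 0.36.

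Cluster 15 was a similar share of each replicate of the tdTomato-GFP- gate, 1.43%, 1.38% and 1.42% of cells (95% Wilson intervals 1.14 to 1.80%, 1.03 to 1.85% and 0.968 to 2.07%). By mean share it was the third smallest of the 16 clusters of that gate. In the tdTomato+GFP+ gate it was 0 of 1747 cells, which allows a share of up to 0.172%, then 0.130% (0.0597 to 0.284%) and 0.623% (0.378 to 1.03%). The means were 1.41 ± 0.0272% and 0.251 ± 0.329% (SD, n = 3 each), and no replicate overlapped. The difference of 1.16 percentage points had p = 0.1 in an exact two-sided permutation test, the smallest p that 3 against 3 allow. That test ignores the pairing of same-numbered replicates. A paired exact sign-flip permutation test, added after seeing the data, gave p = 0.25, the smallest that 3 pairs allow. Intervals and limits cover counting error only.

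The 21 cells of the tdTomato+GFP+ gate came from 2 replicates, and the 18 with both chains made up 6 clonotypes, 9 of them in P1, so they are few and largely clonal. All had Ccl5, with 24 UMIs in the lowest cell, 42 in the median cell and 173 in the highest. Ccl5 was at 14322 and 11368 CPM in replicates 2 and 3, Nkg7 at 1042 and 1292 CPM and Gzmb at 77.2 and 976 CPM. Gates were compared within the cluster by edgeR on 5 sums, of 74, 43 and 26 against 6 and 15 cells, and replicate 1 of the tdTomato+GFP+ gate gave no sum. Of 1726 genes tested, 3 (0.174%) passed, 1 higher and 2 lower in the tdTomato+GFP+ gate. At an unadjusted p under 0.05 there were 61 higher and 72 lower, and DESeq2 called 0 higher and 3 lower. Rgs1, which encodes a regulator of G-protein signalling found in tissue T cells, was at 2276, 2570.5 and 3583 CPM in the tdTomato-GFP- gate and 849 and 1033 CPM in the other. The log2 fold change was -1.55 (SE 0.21, adjusted p = 0.000813 by edgeR). Trbv1, a beta V segment, was at 224, 264 and 317 CPM and had 0 UMIs in both sums of the tdTomato+GFP+ gate, at least 8.55-fold lower against a floor of 3 counts over its 21 cells (adjusted p = 0.000624 by edgeR). Among sequenced receptors, 11 cells of 8 clonotypes used TRBV1 in the first gate and 0 in the other. Nfkbia, which encodes the NF-kB inhibitor IkBa, was at 1088, 1042 and 1226 CPM and at 2046 and 1923 CPM (log2 fold change 0.79, SE 0.16, adjusted p = 0.0273 by edgeR). Rgs1 passed in each of the 9 alternatives that kept both sums of the tdTomato+GFP+ gate (edgeR or DESeq2 adjusted p from 1.12e-10, with the replicate block, to 0.0341). Trbv1 did not pass with thinned cells (adjusted p = 0.0801) or without replicate 3 of the tdTomato-GFP- gate (0.0618). Nfkbia did not pass in DESeq2 (0.102), with the replicate block (0.291), among cells with both chains (0.338), with thinned cells (0.0801), without the filter (0.869) or without replicate 1 (0.163) or 3 (0.160) of the tdTomato-GFP- gate.

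The count moved with single sums, to 25 genes without replicate 2 and 7 without replicate 3 of the tdTomato+GFP+ gate, where a lone sum is taken to vary like the others, and to 6 without replicate 1 of the tdTomato-GFP- gate. With the replicate number as a block, which leaves replicates 2 and 3 to carry the contrast, 14 of 2446 genes (0.572%) passed in edgeR, 2 higher and 12 lower in the tdTomato+GFP+ gate. Among the lower genes were Ccl4 (adjusted p = 7.23e-14 with the block and 0.557 without it, edgeR), Gzma (2.51e-10 and 0.800), Gzmb (2.97e-07 and 0.894), Fcer1g (4.19e-05 and 0.420), Tyrobp (0.000269 and 0.420) and Xcl1 (0.0433 and 0.195). Ccl4 had 7 UMIs in the 21 cells, 0 and 100.5 CPM, against 714, 1671 and 772 CPM. Without the block it passed in DESeq2 (adjusted p = 0.0236). In edgeR it passed without the filter (2.49e-16), among cells with both chains (6.08e-05) and without replicate 1 of the tdTomato-GFP- gate (0.0200). It did not pass in edgeR with thinned cells (0.700), with DESeq2 size factors (0.559) or without replicate 2 (0.681) or 3 (0.642) of that gate. Gzma was at 232 and 144 CPM against 265, 1941 and 750.5 CPM, and 1 cell held 150 of the 287 UMIs of its highest replicate. Fcer1g, Tyrobp, Xcl1, Ccl3 and Eomes had 0 UMIs in the 21 cells, at least 6.11-, 4.33-, 3.33-, 2.69- and 2.37-fold lower against the floor of 3 counts (31.4 CPM). The share of the few cells and of clone P1 in these values was not tested.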

How the data were processed

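Colonic lamina propria CD4 T cells of 2 sort gates with 3 hashed biological replicates each were profiled by single-cell RNA and T cell receptor sequencing. The deposited cell table holds whole UMI counts of 15473 genes and 3 hashtag features in 23595 cells, with the authors' Phenograph cluster and replicate per cell. As deposited, it also gives the share of the main hashtag in a cell's hashtag counts and, as a score with no unit, the number of genes seen in the cell. Cell Ranger and Scanpy 1.7.2 and the build mm10 (GRCm38) are named in the submitters' processing notes, and a second deposited table gives receptor chains. Of these cells, 18874 had a replicate and were used, and 4721 without one were left out. No doublet caller was run here, and what the authors did about doublets is not given in the sources used here. Total counts per gate and replicate ran from 7424984 to 23289046 UMIs, which sets the counting error of low genes.

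Counts were summed per gate, replicate and cluster with Python 3.11.15, numpy 2.4.6 and pandas 2.3.3. Levels are CPM without hashtags, folds add 20 CPM, and clusters are described without a test. Gates and clone classes were compared with edgeR 4.0.16 (R 4.3.3) by quasi-likelihood tests with TMM scaling, filterByExpr (minimum count 10) and Benjamini-Hochberg adjustment at 0.05, with DESeq2 1.42.0 as an alternative. The code was tested on simulated data. Shares were compared with exact permutation tests (scipy 1.17.1), with 95% Wilson intervals. Junction bases were matched to segments of GENCODE vM21, at least 6 bases at each end.

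The genes named are the 4 markers, list members at 50 CPM or more, the largest folds that separate the replicates, genes that passed edgeR, and a set of lineage genes. The cluster, the lists and the tests were chosen with earlier results of these data known. Same-numbered replicates of the 2 gates were taken as paired, though the edgeR fit of gates has no block unless named: their deviations from the gate means correlated at 0.266, 0.169 and 0.213 over 6030 genes (-0.236 to 0.0621 for other pairs), and they shared 19, 23 and 33 clonotypes. The labels call the replicates biological but do not describe the animals, so p-values measure the spread between these samples. Values of 2 genes are not reported here.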

Additional observations from a re-analysis of the deposited data

Results flagged for a closer look

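Among 19 genes examined in cluster 15 of both gates, 2 had differences from all other clusters that ran in opposite directions in every replicate. The 19 were a fixed set together with the genes that passed edgeR between gates or clone classes. Rgs1 entered through its call between gates, so its flag is not independent of that call. Rgs1 was higher in cluster 15 of the tdTomato-GFP- gate (mean log2 fold over all other clusters 0.50, by replicate 0.29, 0.46 and 0.76) and lower in the tdTomato+GFP+ gate (-1.90, by replicate -1.98 and -1.81), where all other clusters had 3413 and 3676 CPM. Eomes was higher in the tdTomato-GFP- gate (2.05) and slightly lower in the tdTomato+GFP+ gate (-0.0109), where cluster 15 had 0 UMIs and all other clusters had 0.101 and 0.204 CPM, so that second value is no more than the added 20 CPM allow. Whether the difference from all other clusters itself differs between the gates was not tested.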

How the results depend on the processing

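Of 109 alternatives tried on 14 results, 85 kept the direction of a difference or stayed near the number of genes, whatever the p-value, 21 moved and 3 reversed. The 12 folds of the 4 markers moved by less than the spread between replicates, which is wide for Gzma and Klrd1, in 93 of 96 alternatives. Beyond it was Gzma among cells with both chains, at 1.03 over all other clusters, 2.25 over cluster 6 and -0.0814 over cluster 4. When each replicate was left out, the log2 fold over cluster 4 ran from 0.77 to 3.05 for Gzma and from 0.91 to 2.12 for Klrd1, the low ends without replicate 2 and under 2-fold, and the other 10 ran from 1.12 to 4.61. The genes called between gates numbered 14 with the replicate block, 15 without a filter, 1 with thinned cells and 3 to 25 when each replicate was left out. Those called between expanded and single cells, in a fit with the replicate block, numbered 0 without it, 4 without a filter, 3 with beta clonotypes, 0 with 3 or more cells as the threshold and 0 to 5 when each replicate was left out. With 5 CPM added in place of 20, 126 genes were higher and 527 lower than all other clusters, 147 and 377 against cluster 4, and 147 and 421 against cluster 6. Leaving out a replicate gave 51 to 68 genes higher than cluster 4 and 101 to 167 lower than cluster 6. The share of cells with both chains against all other clusters ranged from -7.33 to 0.20 points, and without replicate 2 it was 0.20. The expanded share against cluster 4 was -0.263 with beta clonotypes and -4.20 to 5.09 when each replicate was left out, against all other clusters 0.677 to 11.1, and against cluster 6 -15.0 to -9.41. The rate of sharing with cluster 4 above cluster 6 ranged from 7.13 to 63.7 per 10000 pairs. In a paired test added after seeing the data, the replicate block gave the difference in share between gates p = 0.25 by exact sign-flip permutation, at an unchanged 1.16 points. Other causes were not tested. Depth limits genes below about 31.7 CPM in the smallest replicate, and 21 cells limit the comparison of gates.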

Other observations

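Cells of cluster 15 did not all carry the same genes, and the following pairs were chosen after their values were seen, as a description without a test. Gzmk and Eomes went together: 16 of 18 cells with an Eomes UMI had a Gzmk UMI (12 of 13, 3 of 4 and 1 of 1 by replicate), beside 32 of 125 cells without one (16 of 61, 10 of 39 and 6 of 25). Cells with Eomes had a median of 3830 UMIs and those without 3290, so depth differed in the same direction. Gzmk and Cd7 went apart: 13 of 48 cells with a Gzmk UMI had a Cd7 UMI (4 of 28, 6 of 13 and 3 of 7), beside 60 of 95 without one (27 of 46, 21 of 30 and 12 of 19), at medians of 3358 and 3294 UMIs. All 15 cells with an Itgae UMI had a Cd7 UMI, beside 58 of the other cells. Gzma and Gzmb overlapped, in 18 of 22 cells with Gzma against 52 of 121 without it. The adaptor Fcer1g went with Tyrobp (10 of 19 cells against 4 of 124) and with Klrd1 (8 of 19 against 12 of 124), and a Cd4 UMI was seen in 9 of 19 cells with Fcer1g against 87 of 124 without it, while Cd3e was seen in 16 of those 19.

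Beta V use of the cluster was broad. TRBV3 was the most frequent segment, in 15 of 115 cells with a beta V call and 8 clonotypes (12.9%, 12.1% and 15% by replicate, against 10.4%, 6.05% and 7.72% in all other clusters). TRBV1 was found in 11 cells of 8 clonotypes (8.06%, 12.1% and 10% against 5.35%, 9.83% and 10.2%). In the tdTomato+GFP+ gate, Il17a was at 1274 CPM in replicate 2 (33 UMIs) and 28.7 CPM in replicate 3 of cluster 15, and Ccl20 had 25 UMIs in replicate 2, where the 143 cells of the other gate had 1 Il17a UMI and 0 of Ccl20. All other clusters of the tdTomato+GFP+ gate had Il17a at 10888 and 9200 CPM in these replicates, so cluster 15 lay below them in both. Replicate 2 had 6 cells of cluster 15, and the source of its Il17a and Ccl20 UMIs was not tested.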
